A study of Mus musculus with 6 samples.

Results

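The 3 siNC libraries describe the baseline transcriptome of L4/5 dorsal root ganglia (DRG) in male C57BL/6J mice that had been given siNC, read here as a control small interfering RNA (siRNA). They were chosen by their titles, which start with siNC, and are 3 of the 6 libraries in the series. The other 3, from mice given siCLAP, were not analysed here. All mice were aged 8 weeks and received siRNA intrathecally, that is, into the cerebrospinal fluid that bathes cord and roots. The study concerns CLAP, a long intergenic noncoding RNA (lincRNA) linked to itch sensation. The labels do not say what siNC targets or how long after injection the ganglia were taken, and a ganglion without injection is not among the groups. Nor do they state if each library is a mouse of its own or a pool of ganglia, so the spread given below is that between these libraries and may be partly technical. Each value is the authors' TPM, the abundance of a gene scaled to its length and to a fixed total per library, and values of 3 libraries are given in the order siNC-1, siNC-2, siNC-3.

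A dorsal root ganglion holds the cell bodies of the primary sensory neurons of the body. Each large or small soma is wrapped by satellite glia, and its axon runs with myelinating or nonmyelinating Schwann cells through connective tissue, vessels and resident macrophages. The neurons fall into classes that carry limb position, touch, cold, pain or itch, and each class is recognised by its receptors, ion channels, trophic factor receptors and neuropeptides. RNA of a whole ganglion mixes all of these, so for every gene below fewer cells of a type and less RNA per cell cannot be told apart.

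Total expected counts were 35702727, 46317735 and 21386768, and between 26004 and 27505 symbols had a count above 0. For a gene of 2000 bases a floor of 3 counts stood at 0.112, 0.0844 and 0.185 TPM, a limit that covers counting error only. Of 48401 listed symbols, 19237 had a mean of at least 1 TPM, 11118 at least 10, 1867 at least 100 and 99 at least 1000, while 18708 were at 0 in all 3 libraries. The 827 most abundant symbols together held 50% of all TPM. By their marker genes the libraries carried male RNA, and Hox genes of the lumbar level were present. Eif2s3y, on the Y chromosome, stood at 47.8, 53.5 and 51.9 TPM and Xist at or below 0.0126 TPM. Hoxa9 stood at 43.7, 42.3 and 41.9 TPM and Hoxa10 at 32.0, 34.2 and 33.4, whereas Hoxc12, Hoxd12, Hoxa13, Hoxc13 and Hoxd13, which mark more caudal levels, were at 0. Hoxd10 (8.62, 15.6 and 14.8) and Hoxd11 (4.63, 8.87 and 8.12) were lowest in siNC-1. Of 12 genes of the brain and spinal cord 3 reached a mean of 1 TPM and Gad1 and Slc32a1 were at 0, with Aqp4 the most abundant at 4.18 ± 0.657 TPM (mean ± SD, n = 3, as in all values written with ± below). The 8 skeletal muscle genes summed to 3.71 ± 0.606 TPM and the 6 of fat, cartilage and bone to 1.73 ± 0.315.

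Ranked by mean TPM, the abundant end of the transcriptome consisted of tubulins, neurofilaments, mitochondrial transcripts and other genes of the neuronal cell body, together with a set of very short annotated features. Of the 40 features of highest mean TPM, 22 were nuclear protein-coding genes and 8 came from the mitochondrial genome. Another 6 were records named by a sequence accession. A length under 200 bases, as implied by count and TPM, was found for 7 of the 40. These short features include 2 of the accession-named records and the mitochondrial mt-Tp. Tuba1a, an alpha-tubulin of neuronal microtubules, was the most abundant nuclear protein-coding gene at 6103, 6247 and 6024 TPM. Uchl1, a deubiquitinase that makes up a large part of neuronal protein, followed at 3919, 4006 and 3854, and Tubb3, the neuronal beta-tubulin, at 3815, 3528 and 3702. The values of Tuba1a were higher than those of Uchl1 in every library.

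**Figure D1:**
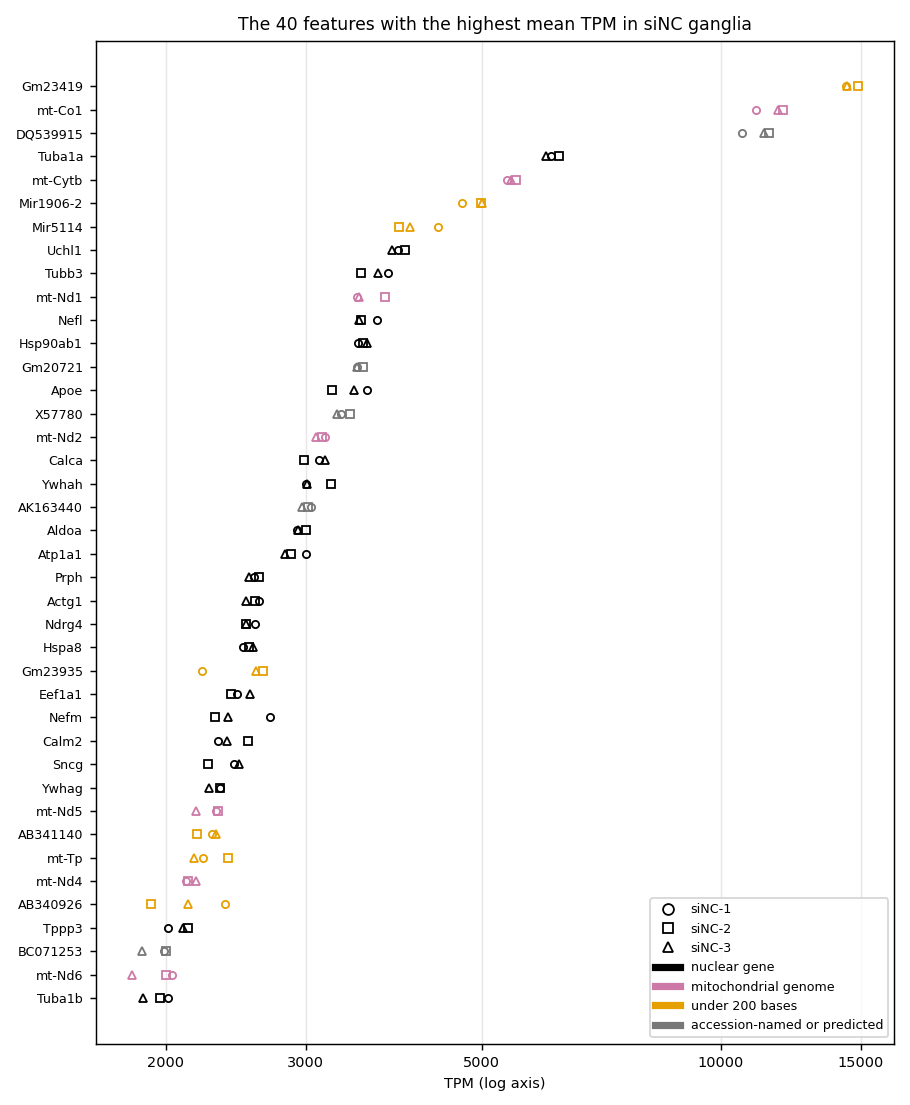
TPM of the 40 features of highest mean TPM (log axis), 1 symbol per library (circle siNC-1, square siNC-2, triangle siNC-3) and coloured by kind of feature. The 3 symbols of most features lie close together. Among the nuclear genes stand 7 features under 200 bases, which include the mitochondrial mt-Tp, and 7 longer mitochondrial genes.

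The highest value of all belonged to Gm23419, an annotated miRNA feature of 84 bases with 14394, 14892 and 14428 TPM. It lies at chr11:120346736-120346819 on the minus strand (mm10), and 98.8% of it is inside an exon of Actg1, the gamma-actin gene, on the same strand. The count of Gm23419 was 23.6% to 24.7% of the count of Actg1, but divided by its short length this became 5.65 ± 0.139 times the TPM of Actg1, which itself stood at 2621, 2594 and 2519.9. The same arrangement held for Mir5114, 4398, 3930.2 and 4061 TPM, a 61-base feature inside Scd2, a fatty acid desaturase, with 4.28% to 4.74% of the count of Scd2. It held for Mir3064, 1629.5, 1715 and 1686 TPM, inside the RNA helicase gene Ddx5, with 8.28% to 8.504% of its count. Mir1906-2, 4722, 4985 and 5009.6 TPM, covers 80 bases of the noncoding gene Gm27000 on chromosome X.

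Of these features 3 are shown because their rank depends on their length: Mir5114 is the complete hairpin, with the mature miRNA in capitals, and the other lines are mature miRNAs with the seed, bases 2 to 8, in capitals. Sequences are from RefSeq (GRCm38.p6).
Mir5114 hairpin, chr19:44303171-44303231, plus strand: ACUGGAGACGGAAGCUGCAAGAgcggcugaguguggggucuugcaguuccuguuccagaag
Mir5114 mature: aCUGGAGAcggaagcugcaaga
Mir1906-2 mature: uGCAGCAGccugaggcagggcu
Mir3064-5p mature: uCUGGCUGuuguggugugcaaa
Mir3064-3p mature: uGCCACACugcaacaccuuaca
No 2 of these 4 seeds were the same. The labels' protocols name no step that selects small RNA, so these TPM values should not be read as levels of the mature miRNAs. Whether their reads came from the host transcripts was not tested.

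Features under 200 bases together took 9.80%, 9.82% and 9.75% of TPM but 0.260%, 0.269% and 0.264% of counts. Among the 100 features of highest mean TPM 22 were short, and 78 of the 100 were also in the top 100 when only features of at least 200 bases were ranked. Of the 22, 12 are in GENCODE and 7 of these lie in an exon of another gene on the same strand. Records named by an accession held 8.64%, 8.69% and 8.59% of TPM, and some repeat a named gene. DQ539915 carried the same counts as mt-Co1 in all 3 libraries. Gm20721, 3486, 3546 and 3485 TPM, has 99% of its exon bases under Gnas on the opposite strand, and the kit does not mark strand, so reads of the 2 genes cannot be told apart. Of the genes given below, over 20% of the exon bases of Tuba1a (Gm49450) and Nmb (Sec11a) lie under a gene on the same strand, and over 20% of those of Piezo1 (Ctu2) and Miat (Gm26953) lie under a gene on the opposite strand, so their values may include reads of the gene in brackets. Counts identical to another gene in all 3 libraries were found for 965 symbols with a mean of at least 1 TPM.

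The 37 symbols of the mitochondrial genome, which cover subunits of the respiratory chain, transfer RNAs and ribosomal RNAs, took 3.57%, 3.76% and 3.60% of TPM. This share leaves out records named by an accession, among them DQ539915 (10623, 11493 and 11325 TPM) with the counts of mt-Co1. Within the 37 symbols the levels were far apart. The cytochrome oxidase subunit mt-Co1 stood at 11083, 11992 and 11816 TPM, cytochrome b (mt-Cytb) at 5373, 5528 and 5448 and the complex I subunit mt-Nd1 at 3483, 3777 and 3507. The neighbouring genes mt-Co2 (9.09, 9.67 and 9.34), mt-Co3 (14.7, 10.1 and 21.1), mt-Atp6 (11.8, 25.2 and 8.05) and mt-Atp8 (10.1, 19.9 and 6.47) were at or under 25.2 TPM in every library. The TPM of mt-Co1 was more than 100 times that of each of these 4, and the rule for reads matching several places was not given in the sources used here. Of the nuclear respiratory chain genes all 20 on the list exceeded 10 TPM, led by the ATP synthase subunit Atp5b at 1361, 1315 and 1329 and Cox6a1 at 885, 935 and 967. The 90 ribosomal protein symbols summed to 15522, 16219.7 and 16875 TPM, with Rpl4 highest on average at 602 TPM.

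Genes shared by all sensory neurons were abundant, and their sum differed little between the libraries. The 16 pan-neuronal genes all exceeded 10 TPM and summed to 17792, 17321 and 17419.7 TPM, 1.75% of the total. The coefficient of variation (CV, the SD over the mean) was 1.42% for the sum. For single genes of the 16 the median CV was 3.27%, and Map1b had 9.17%. All genes of at least 200 bases at 100 to 1000 TPM had a median CV of 3.54%. Snap25, of the synaptic vesicle fusion machinery, stood at 1688, 1805 and 1628, the microtubule regulator Stmn3 at 900.0, 1033 and 963, its paralog Stmn2 at 455, 455 and 448, and the growth-associated protein gene Gap43 at 393, 394 and 411. Sncg, gamma-synuclein, reached 2434, 2260.1 and 2474 TPM. Slc17a6, the vesicular glutamate transporter VGLUT2 of these excitatory neurons, stood at 159.6, 170.5 and 167. The RNA-binding neuronal markers Elavl4 (198, 194 and 193) and Rbfox3 (131, 129 and 128), and the axon surface gene Thy1 (1129, 1112 and 1114), each had a CV at or under 1.24%.

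The 15 genes of sensory neuron identity summed to 4336, 4389 and 4294 TPM, of which the intermediate filament Prph (peripherin) gave 2584, 2624 and 2544 and Avil (advillin), an actin-binding protein of peripheral neurons, 908, 891 and 904. Of the homeodomain factors that specify sensory neurons, Pou4f1 (Brn3a) stood at 129, 130.4 and 123 TPM and Isl1 at 120.4, 124 and 118, and their ranges overlapped. Tlx3, a factor of the nociceptor and itch lineages, stood at 135, 138 and 137 and Prrxl1 (Drgx) at 99.4, 119.5 and 113. Runx1, which directs small-diameter nociceptors, was at 35.0, 37.5 and 35.0 and Runx3, which directs proprioceptors, at 8.02, 7.68 and 7.24. Sox11, a factor of growing and injured neurons, was the lowest of the 15 at 4.25, 4.24 and 4.14.

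The neurofilaments, which set the calibre of large myelinated axons, were among the most abundant messages. Nefl stood at 3687, 3520.0 and 3498, Nefm at 2707, 2308 and 2394 and Nefh at 2089, 1726 and 1779 TPM, all 3 highest in siNC-1, with Nefl 1.92 ± 0.142 times Nefh. Part of Nefl, 32.8% of its exon bases, lies opposite Nefm, and reads there cannot be told apart without strand. Prph, which belongs mainly to small unmyelinated neurons, was 1.40 ± 0.144 times Nefh. Ina, internexin, was the least abundant of the 5 at 40.1, 38.1 and 40.1.

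The receptor tyrosine kinases of the neurotrophins mark broad divisions of the ganglion. Ntrk2 (TrkB), of touch neurons, stood at 47.6, 43.2 and 42.2 and Ntrk3 (TrkC), of proprioceptors, at 14.4, 11.5 and 14.3 TPM. The range of Ntrk2 lay above that of Ntrk3. Ret, the signalling receptor of the GDNF family, stood at 421, 397 and 423, and its co-receptors at 172, 183 and 186 (Gfra2, for neurturin), 115, 99.8 and 115 (Gfra3, for artemin) and 109.5, 95.5 and 99.0 (Gfra1, for GDNF). Kit, a receptor of peptidergic neurons, stood at 57.9, 59.9 and 58.7 TPM.

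Markers of the 8 neuron classes were all detected, with 65 list entries in all and the lowest mean at 1.26 TPM. In proprioceptors, which report muscle length and tension, the calcium buffer Pvalb stood at 121, 122 and 119 TPM, the secreted phosphoprotein Spp1 at 243, 201 and 231 and the factor Etv1 at 82.7, 73.9 and 74.4. Whrn (whirlin) stood at 22.4, 20.6 and 22.1. In A-fibre low-threshold mechanoreceptors, which carry light touch, Calb1 stood at 26.8, 28.4 and 26.8 TPM, the factor Maf at 24.5, 21.7 and 23.2, the factor Mafa at 22.8, 19.6 and 19.3, and the axonal adhesion gene Cntnap2 at 83.7, 69.4 and 75.6. In C-fibre low-threshold mechanoreceptors, linked to gentle stroking, tyrosine hydroxylase (Th) stood at 127, 141 and 151, the secreted protein gene Fam19a4 at 30.1, 36.0 and 34.0 and the vesicular glutamate transporter VGLUT3 (Slc17a8) at 9.50, 9.06 and 9.88. For neighbours in this last list the 3-library ranges did not overlap, from Gfra2 and Th down to Zfp521 and Slc17a8.

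**Figure D2:**
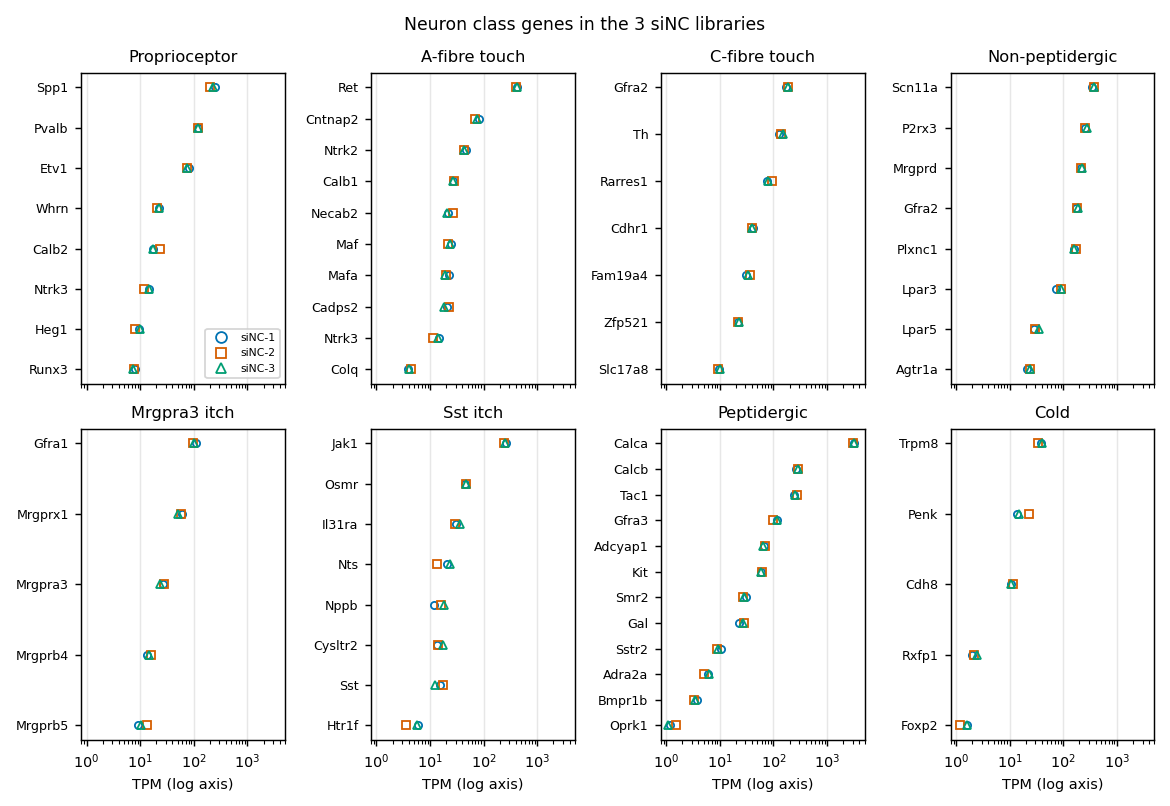
TPM (log axis) of marker genes of 8 sensory neuron classes, with genes ordered by mean TPM in each panel and 1 symbol per library. The genes of a panel differ far more than the 3 libraries of a gene do, and Gfra2 and Ntrk3 appear in more than 1 panel.

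Non-peptidergic nociceptors, the small neurons that end in the epidermis, had a list of 9 genes, all above 10 TPM, which summed to 1354, 1441 and 1462 TPM. The sodium channel Scn11a (Nav1.9) stood at 343, 370.5 and 367, the ATP-gated channel P2rx3 at 253, 253 and 274 and Mrgprd, a receptor for beta-alanine, at 209.9, 216 and 221. The semaphorin receptor Plxnc1 stood at 159, 169 and 161 and the lysophosphatidic acid receptor Lpar3 at 73.0, 89.6 and 91.8, while Lpar5, also of that family, stood at 28.1, 30.04 and 35.0. All 9 were lowest in siNC-1, where 5426 of all 17835 genes of at least 200 bases and 1 TPM were lowest. The gap was small, as the highest sum was 1.08 times the lowest.

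Genes of the itch neuron classes on the lists were present. In the class that answers chloroquine, Mrgprx1 (also named Mrgprc11) stood at 61.2, 58.3 and 49.999 TPM, the chloroquine receptor Mrgpra3 at 26.6, 28.1 and 23.9, Mrgprb4 at 13.5, 15.6 and 14.4 and Mrgprb5 at 9.16, 13.5 and 10.3. The Mrg genes are near-identical copies of each other in places, so counts may be shared among them. The TPM of Mrgprd was 8.27 ± 0.835 times that of Mrgpra3.

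In the class that answers interleukin 31 and releases natriuretic polypeptide b, the receptor subunit Osmr stood at 45.0, 46.7 and 47.3 TPM and its partner Il31ra at 30.05, 29.0 and 35.8. Their kinase Jak1, which many cells express, stood at 260.5, 238 and 246. The leukotriene receptor Cysltr2 stood at 13.6, 14.4 and 17.5, Nppb at 11.7, 16.3 and 18.4, Sst (somatostatin) at 15.2, 17.6 and 12.3, Nts (neurotensin) at 21.1, 13.5 and 23.6 and the serotonin receptor Htr1f at 6.02, 3.49 and 5.64. Of the 8 neuron classes this had the largest median CV. It was 15.6% over 8 genes, against 6.37% over all genes of at least 200 bases and 1 TPM, which pools all levels. All genes of at least 200 bases at 10 to 100 TPM had a median CV of 4.92%. The CV was 17.6% for Sst, 22.2% for Nppb and 27.3% for Nts. Counting alone would give 10.03%, 8.396% and 6.04%, so part of their spread may be counting error. These 3 peptides did not move together. Nppb and Nts were highest in siNC-3, Sst in siNC-2, and siNC-2 was the lowest library for Nts while siNC-1 was the lowest for Nppb.

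Peptidergic nociceptors release peptides that dilate vessels and act in the spinal cord. Calca, which encodes calcitonin gene-related peptide (chr7:114631478-114636357, minus strand), ranked 17 among all features at 3115, 2983 and 3174 TPM. Its paralog Calcb stood at 263, 285 and 292 and Tac1, which encodes substance P, at 237, 269 and 253. Calca was 11.1 ± 0.709 times Calcb and 12.2 ± 1.06 times Tac1, and the ranges of Calcb and Tac1 overlapped. Adcyap1 (PACAP) stood at 67.2, 69.4 and 63.5, Gal (galanin) at 23.1, 27.7 and 27.1, Sstr2 at 10.4, 8.96 and 9.28 and the kappa opioid receptor Oprk1, the lowest of the 13, at 1.16, 1.54 and 1.07.

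Over the wider list of 16 neuropeptides, 11 exceeded 10 TPM. Nmb, neuromedin B, a transmitter of itch circuits, came next after Calca at 243, 313 and 289 TPM, and its range overlapped that of Calcb. Cartpt stood at 26.0, 23.2 and 26.7 and Penk (enkephalin) at 13.7, 22.9 and 15.2. From Gal down to Sst the range of each peptide overlapped that of the next, so neighbours among those 6 cannot be put in order. Grp (gastrin-releasing peptide), a transmitter of itch in the spinal cord, was listed at 0.540, 0 and 0 TPM. Pdyn (0.149, 0.180 and 0.0491) and Vip (0.0489, 0.147 and 0) were also at or near the floor, and Cck stood at 0.875, 0.395 and 0.720.

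Of the 14 voltage-gated sodium channel genes measured, Scn10a (Nav1.8; chr9:119608456-119719322, minus strand), the tetrodotoxin-resistant channel of nociceptors, was the most abundant at 715, 679.9 and 699 TPM. Scn11a was lower, and the beta subunit Scn4b (241, 251 and 224) lay above Scn7a (172, 173 and 176), a sodium sensor of nonmyelinating Schwann cells and some neurons. Scn9a (Nav1.7), in which loss of function abolishes pain in people, stood at 123, 116 and 120.5, and Scn8a (Nav1.6), of the node of Ranvier, at 87.2, 71.0 and 74.3. Scn10a was 5.83 ± 0.0331 times Scn9a and 1.94 ± 0.128 times Scn11a. Scn2a, listed under its older name Scn2a1 (6.29, 5.56 and 5.53), Scn4a (5.85, 4.90 and 4.89) and Scn3a (2.05, 1.91 and 1.75) were low. Among the sodium channel genes named here, ranges overlapped only for Scn2a1 and Scn4a.

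The 13 sensory transduction channels ran from P2rx3 down to Piezo1, and the ranges of neighbours in this order did not overlap. The acid-sensing channel Asic3 stood at 189, 185 and 182 TPM and Piezo2, the channel of touch and limb position, at 179, 159 and 169. Trpv1, the receptor for capsaicin and heat, stood at 134, 131 and 128 TPM, Trpa1, the receptor for mustard oil and other irritants, at 46.7, 45.6 and 44.4, and Trpm8, the receptor for cold and menthol, at 38.8, 34.5 and 40.6. Trpv1 was 2.87 ± 0.00342 times Trpa1 and 3.47 ± 0.322 times Trpm8. Counting alone would give a CV of 1.35% for Trpv1 and 2.09% for Trpa1. The small SD of their ratio therefore lies below counting error and is not meaningful. Trpm3, a heat channel, stood at 17.0, 15.8 and 16.4. Piezo1 stood at 2.61, 2.44 and 2.95, so Piezo2 was 63.5 ± 5.69 times as high. Of the cold list, Cdh8 stood at 10.4, 11.3 and 10.6 and Foxp2 at 1.63, 1.21 and 1.57.

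The most abundant glial genes stood at levels like those of the most abundant neuronal markers. Apoe, the lipid carrier that satellite glia and macrophages make, ranked 14 overall at 3584, 3243 and 3451 TPM. Of the other satellite glia genes, glutamine synthetase (Glul) stood at 303, 314 and 321, the fatty acid binding protein Fabp7 at 183, 180.2 and 191 and the potassium channel Kcnj10 (Kir4.1), which clears potassium around the soma, at 40.8, 39.3 and 44.9. The gap junction gene Gja1 stood at 16.7, 14.3 and 15.1 and the glutamate transporter Slc1a3 at 7.09, 4.95 and 6.39. All 10 satellite glia genes together summed to 4412, 4054 and 4319 TPM, a CV of 4.36%. Even so, siNC-2 was the lowest library for 8 of the 10, against 7203 of the 17835 genes overall.

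Pmp22, a myelin membrane protein whose dosage causes inherited neuropathy, was the most abundant of the myelin genes named here, at 1848, 1566 and 1714 TPM. It was highest in siNC-1 and lowest in siNC-2. Mbp stood at 116, 74.0 and 101, periaxin (Prx), which links the Schwann cell to its matrix, at 124, 72.3 and 97.9, and Mag at 22.3, 17.0 and 23.1. The factor Egr2 (Krox20), which switches on myelin genes, stood at 19.8, 16.2 and 14.1.

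All 18 myelinating Schwann cell genes exceeded 10 TPM. Their sum was 5120.0, 3876 and 4534 TPM, a CV of 13.8%, and siNC-2 was the lowest library for 17 of the 18 and siNC-1 the highest for 15. Over all 17835 genes of at least 200 bases and 1 TPM, siNC-2 was the lowest for 7203 and siNC-1 the highest for 6840. The median member stood 0.22 above its 3-library mean in siNC-1 and at −0.26 in siNC-2 on the log2(TPM + 0.5) scale. The 7 genes of the whole Schwann lineage summed to 1060.1, 983 and 1058 TPM, a CV of 4.26%, and siNC-2 was the lowest library for 5 of them, with the median member at −0.11 there. S100b stood at 638, 629 and 635 TPM, Cdh19 at 65.3, 65.4 and 72.4, Sox10 at 79.2, 64.4 and 78.6 and Foxd3 at 23.5, 15.9 and 20.6, and Sox10 and Foxd3 were lowest in siNC-2. The nonmyelinating list, much of which neurons also express, summed to 1867, 1764 and 1819, with Ngfr (p75) at 714, 639 and 656 and L1cam at 464, 444 and 453. Gfap, an intermediate filament of reactive glia, was at 1.26, 0.891 and 1.81.

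Stromal genes ranged from abundant to rare. Of 11 fibroblast genes the proteoglycan Dcn was highest at 338, 245 and 330.4 TPM, followed by Gsn (210.2, 181 and 202), which many cells express, and Serpinf1 (143, 123 and 127). Col1a1 stood at 35.7, 14.2 and 37.0, Col1a2 at 86.2, 46.6 and 83.4 and Col3a1 at 30.8, 12.3 and 34.7, and these fibrillar collagens were each lowest in siNC-2. The list summed to 920.3, 681 and 894 TPM. Each of its 10 members with a mean of at least 1 TPM was lowest in siNC-2, against 7203 of the 17835 genes overall. Perineurial genes were lower, with the glucose transporter Slc2a1 at 47.6, 55.2 and 53.1 and the tight junction gene Cldn1 at 14.9, 7.69 and 12.8.

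Leptomeningeal genes, of the membranes that continue onto the dorsal root, differed most among the stromal lists. The prostaglandin D synthase Ptgds stood at 90.3, 19.3 and 91.7 TPM, the growth factor Igf2 at 8.36, 2.18 and 19.97 and the retinoic acid synthesis enzyme Aldh1a2 at 2.34, 0.323 and 7.75. The sum was 119.8, 30.5 and 142 TPM. All 8 members with a mean of at least 1 TPM were lowest in siNC-2, against 7203 of the 17835 genes overall. Igf2 shares 62.8% of its exon bases with the overlapping record Gm49394 on its own strand. H19, a noncoding RNA of the same imprinted region, stood at 6.61, 1.02 and 15.7. How much membrane each dissection carried was not measured and its part in these values was not tested.

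Vascular genes were low. In endothelium Ly6c1 stood at 63.1, 66.6 and 71.7 TPM, Cldn5, of the tight junctions, at 23.3, 26.7 and 27.3, Pecam1 (CD31) at 11.7, 12.3 and 15.4, Cdh5 at 12.7, 10.01 and 14.5 and von Willebrand factor (Vwf) at 5.15, 4.89 and 8.996. The sum of 14 genes was 197, 201 and 228, and siNC-3 was the highest library for 13 of the 14, against 5885 of the 17835 genes overall. Of the 10 mural cell genes, the pericyte gene Rgs5 was the highest at 101, 104 and 106 TPM, and smooth muscle actin Acta2 stood at 6.88, 6.40 and 7.46. Other members were far below Rgs5, with means of 18.6 TPM for Pdgfrb, 1.26 for Kcnj8 and 1.24 for Abcc9. The erythroid list, led by hemoglobin genes, had the largest CV of all lists. Hbb-bs stood at 19.9, 4.03 and 10.9 TPM and Hba-a2 at 15.02, 2.49 and 9.75, and the erythroid list summed to 56.7, 10.1 and 33.7. All 5 members were highest in siNC-1 and lowest in siNC-2, against 6840 highest and 7203 lowest of the 17835 genes overall. The amount of blood left in each ganglion was not measured.

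Of the 6 immune lists, those of macrophages and MHC class II had the highest sums. Lysozyme (Lyz2) stood at 53.9, 31.6 and 55.1 TPM and the complement subunit C1qa at 17.0, 10.8 and 20.8. C1qb (17.0, 9.62 and 17.9) and C1qc (13.0, 7.02 and 15.8) followed, with ranges that overlapped each other and that of C1qa. The growth factor receptor Csf1r stood at 6.94, 5.93 and 7.97, Mrc1 (CD206) at 3.52, 2.74 and 3.35, Adgre1 (F4/80) at 1.40, 1.06 and 1.11 and Cx3cr1 at 1.14, 0.480 and 1.08. The 16 macrophage genes summed to 150.3, 92.8 and 175 TPM. Of the 15 with a mean of at least 1 TPM, 13 were lowest in siNC-2, against 7203 of the 17835 genes overall. MHC class II genes, which present antigen, stood at a similar level, with Cd74 at 52.4, 33.7 and 40.4 and H2-Aa at 36.7, 21.0 and 21.7, both highest in siNC-1.

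Genes of lymphocytes and granulocytes had lower sums, with means of 3.02 TPM for T and NK cells, 29.3 for B and plasma cells, 8.59 for mast cells and 5.47 for neutrophils. Of 9 T and NK cell genes 1 passed 1 TPM, the kinase Lck at 1.85, 1.94 and 1.79. Cd3e was listed at 0.208, 0 and 0.5998 TPM and Cd8a at 0, 0 and 0.0786. Ighm, the heavy chain of IgM, made up most of the B and plasma cell sum at 29.3, 20.6 and 29.8 TPM. Of the B cell genes, the antigen receptor subunit Cd79a stood at 1.69, 2.16 and 1.77 TPM and Ms4a1 (CD20) was listed at 0.0247, 0 and 0. Mast cell proteases were present at low level, with Mcpt4 at 1.999, 1.59 and 1.99 and Tpsb2 at 1.30, 2.48 and 2.71. The neutrophil gene S100a9 stood at 1.43, 1.18 and 5.75, with siNC-3 the highest, and Ly6g at 0, 0 and 0.133.

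Genes of the immediate early, nerve injury and glucocorticoid lists were measured in RNA of the whole ganglion, so their levels are not those of neurons alone. Without an uninjected ganglion these levels cannot be called raised or lowered. Of the immediate early genes, which neurons switch on with activity or handling, Jun stood at 99.2, 103 and 122 TPM, Fos at 4.03, 3.08 and 3.79, Egr1 at 5.35, 4.41 and 4.08 and Npas4 at 0.355, 0.312 and 0.649. Of genes that rise in injured sensory neurons, Atf3 stood at 13.7, 9.16 and 12.7, Gadd45a at 29.3, 26.0 and 24.9, Sprr1a at 9.22, 1.89 and 2.52 and Npy at 4.03, 2.59 and 0.652. Ecel1 stood at 4.49, 1.45 and 3.24. Of the 8 members of this list with a mean of at least 1 TPM, 6 were highest in siNC-1, against 6840 of all 17835 genes of at least 200 bases and 1 TPM, while Gal was highest in siNC-2 and Csf1 in siNC-3. Of glucocorticoid targets, Tsc22d3 stood at 113, 142 and 129, Fkbp5 at 34.3, 41.6 and 41.9 and the metallothionein Mt2 at 63.5, 117 and 84.0. An antisense record covers 73.5% of Mt2, so its reads may include those of that record.

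Long intergenic noncoding RNAs (lincRNAs) formed a small share of the ganglion transcriptome. Annotated lincRNAs took 0.563%, 0.578% and 0.575% of TPM, against 79.5%, 79.3% and 79.5% for protein-coding genes. Of 1990 lincRNA symbols 337 had a mean of at least 1 TPM and 8 at least 100. Of the 13 RNAs on the noncoding list, Snhg11 was highest at 682, 799 and 740.1 TPM, although GENCODE gives it as protein-coding, so that the lincRNA share does not hold it. Next came Meg3, an imprinted RNA, at 464, 511 and 494, Miat at 234, 229 and 243 and Peg13, annotated as sense intronic and so also outside that share, at 191, 195 and 187. Malat1 stood at 101, 111 and 104 and Neat1, of nuclear paraspeckles, at 16.9, 16.8 and 16.3. Pantr1 was at 0. No symbol carries the name CLAP, so its level in these ganglia is not analysed here.

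The spread between the 3 libraries was close to counting error for low genes and exceeded it for abundant ones. The median CV was 6.83% over the 19237 genes with a mean of at least 1 TPM and 6.37% over the 17835 of at least 200 bases. By level, for genes of at least 200 bases, the median CV fell from 11.6% at 1 to 10 TPM through 4.92% and 3.54% to 3.13% above 1000 TPM, while the CV that counting alone would give fell from 10.2% to 0.498%. Short features spread more. At 1 to 10 TPM their median CV was 52.6%, and counting alone would give 62.7%. The biological coefficient of variation, the spread beyond counting error that edgeR estimates over all genes together, was 6.99%.

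**Figure D3:**
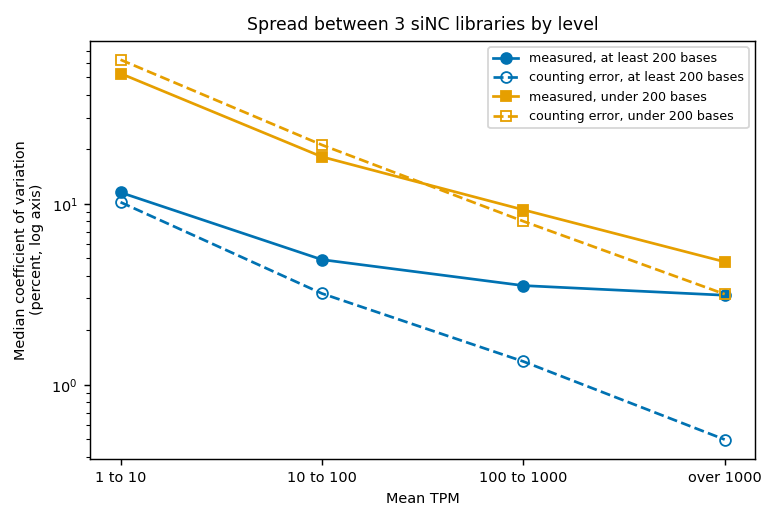
Median CV between the 3 siNC libraries in percent (log axis) against mean TPM class, measured (filled symbols) and as given by counting error alone (open symbols), for features of at least 200 bases (circles) and shorter ones (squares). The measured spread of longer genes levels off near 3% above 1000 TPM, and that of short features lies near counting error up to 100 TPM.

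No pair of libraries was a repeat deposit. Counts of siNC-1 and siNC-2 differed with a chi-square that averaged 10.04 per gene. For siNC-1 and siNC-3 it was 4.36 and for siNC-2 and siNC-3 5.57, where about 1 (the degree of freedom) would be sampling noise. This value grows with the total count, which was highest in siNC-1 and siNC-2, so it does not rank the pairs by their difference. Across genes, which are not independent replicates, Pearson's r of log2(TPM + 0.5) was 0.985, 0.979 and 0.979 for the same pairs. The median absolute difference between libraries was 0.10 to 0.12 on that scale.

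The most even genes differed by less than counting error. The 10 smallest CVs at 50 TPM or more ranged from 0.0812% for Pnma2 (61.8, 61.7 and 61.7 TPM), a neuronal antigen, to 0.177% for Rpl8 (403, 402 and 402), a ribosomal protein. Psmd2, a proteasome subunit, stood at 292, 292 and 292, Ubqln4 at 57.0, 56.9 and 57.0 and Tomm34 at 123, 123 and 123. Their counting CVs were 0.975% to 2.29%, so their order is not meaningful. They were picked for their small spread, which is therefore a description.

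By the CV of the summed TPM, the 5 lists with the widest spread were those of erythroid cells, neutrophils, membranes, macrophages and the interferon response. The 5 with the narrowest spread of the sum were neuronal. The CV of the summed TPM was 69.5% for erythroid, 66.2% for neutrophil (mean sum 5.47 TPM), 60.6% for leptomeningeal, 30.3% for macrophage, 28.0% for interferon, 19.1% for MHC class II, 16.9% for B and plasma cell, 15.8% for fibroblast and 13.8% for myelinating Schwann cell genes. It was 1.10% for sensory neuron identity, 1.18% for sodium channels, 1.42% for pan-neuronal genes, 1.62% for sensory channels and 1.98% for peptidergic genes. For single genes of these 5 lists the median CV was 4.03%, 4.07%, 3.27%, 4.58% and 6.39%, in the same order. Over all genes of at least 200 bases and 1 TPM it was 6.37%, so the order of lists above is that of sums only. Lists share some members, and a sum is led by its most abundant gene.

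**Figure D4:**
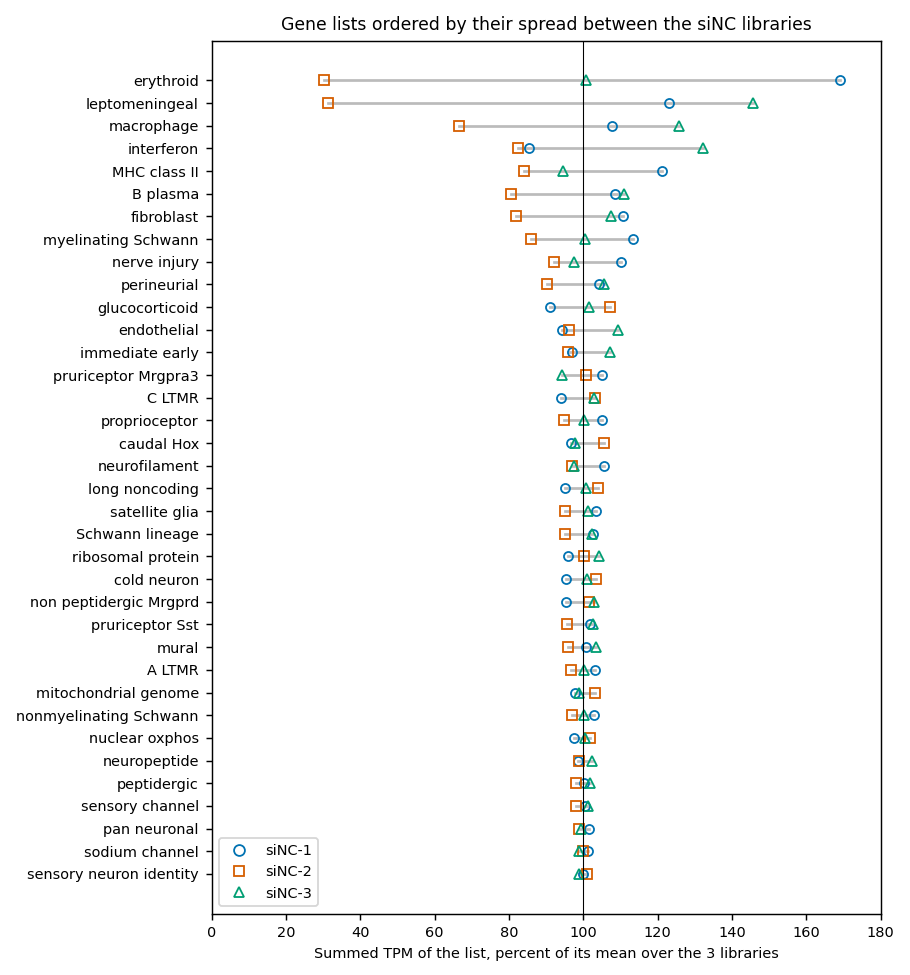
Summed TPM of each gene list as percent of its mean over the 3 libraries, for lists with a mean sum of at least 10 TPM (sex-linked genes left out), ordered by CV from top to bottom. Neuronal lists lie within a few percent of 100, while siNC-2 lies lowest for erythroid, leptomeningeal, macrophage, fibroblast and myelinating Schwann genes and siNC-3 highest for interferon genes.

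Few genes differed over 2-fold between the highest and the lowest library on the TPM + 0.5 scale. They were 972 of 19237 (5.05%) with a mean of at least 1 TPM, 342 of 17835 (1.92%) of those of at least 200 bases, and 40 of 10625 (0.376%) at 10 TPM or more. Of these last 40, 32 were highest in siNC-3 and 32 lowest in siNC-2, against 3078 and 4089 of all 10625. They were ranked by this spread, so their values are a description. The widest was Erdr1, 14.8, 0.127 and 30.8 TPM, with 176, 2 and 222 counts, a gene of the pseudoautosomal region of the sex chromosomes. Xlr3b, an X-linked gene, was highest in siNC-2 at 5.96, 29.0 and 12.02 TPM, and Srd5a2, a steroid reductase, stood at 10.1, 23.1 and 9.22.

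**Figure D5:**
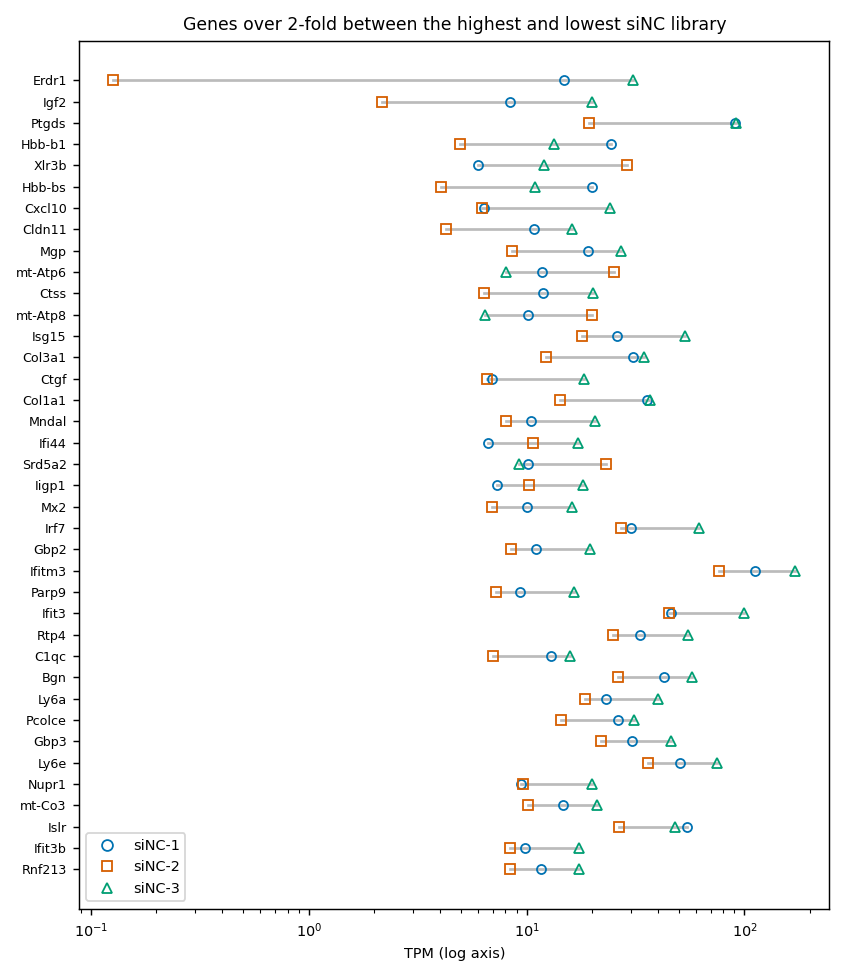
TPM (log axis) in each library of the genes of at least 200 bases and 10 TPM that differed over 2-fold between libraries, ordered by the ratio of highest to lowest; records named by a sequence accession (2 of the 40) are left out. Most have siNC-3 (triangle) at the right end and siNC-2 (square) at the left.

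The 40 included matrix and membrane genes, namely Col3a1, Col1a1, Mgp (19.2, 8.60 and 27.1 TPM), Bgn (42.7, 26.4 and 57.2), Pcolce (26.3, 14.4 and 31.0), Islr (54.5, 26.6 and 48.0), Cldn11 (10.9, 4.27 and 16.1), Igf2 and Ptgds. They included the hemoglobin genes Hbb-b1 and Hbb-bs, whose counts were identical, and the macrophage genes Ctss and C1qc. A further group belongs to the response to interferon, the cytokines of antiviral defence. It held the list members Isg15, Irf7, Ifitm3, Ifit3 and Rtp4 (33.3, 25.0 and 55.2 TPM), and Cxcl10, Mx2, Gbp2, Gbp3 (30.6, 22.0 and 45.9), Iigp1, Ifi44 and Rnf213, which were named after their values were seen. siNC-3 was the highest library for each of these 12, as it was for 32 of the 40.

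The 15 interferon genes summed to 812, 784 and 1259.6 TPM. All 15 were highest in siNC-3, where 5885 of the 17835 genes of at least 200 bases and 1 TPM were highest. Isg15, a ubiquitin-like protein, stood at 26.1, 18.1 and 53.2 TPM, Ifit3 at 46.2, 44.9 and 99.3, Irf7, the factor that amplifies the response, at 30.2, 27.1 and 61.7, and Ifitm3, a membrane barrier to viruses, at 111, 76.6 and 171. The chemokine Cxcl10, outside the list, stood at 6.39, 6.27 and 24.1. The gap was smaller in proportion for Oasl2 (161, 155 and 204) and Ifit1 (129.9, 146 and 198), and Bst2, which tethers budding virus, stood at 40.9, 47.9 and 78.4. For each of these genes siNC-1 and siNC-2 were closer to each other than siNC-3 was to the higher of them. In siNC-3 the macrophage sum was also the highest of the 3, at 175 TPM against 150 and 92.8, and its part in the interferon values was not tested. The total count of siNC-3 was the lowest of the 3.

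Promoters of 4 of these genes are shown because all 15 members were highest in the same library and these 4 promoters hold a short element that 7 of the 10 members with a promoter in the table carry. Windows of 300 bases were searched for GAAANNGAAA on both strands, the core of the interferon-stimulated response element. The 200 bases upstream of each start are printed. Matches are in capitals (TTTCNNTTTC where the match is on the other strand, and overlapping matches run together). Sequences are from RefSeq (GRCm38.p6), on the strand of the gene.
Isg15, chr4:156200819-156201018, minus strand: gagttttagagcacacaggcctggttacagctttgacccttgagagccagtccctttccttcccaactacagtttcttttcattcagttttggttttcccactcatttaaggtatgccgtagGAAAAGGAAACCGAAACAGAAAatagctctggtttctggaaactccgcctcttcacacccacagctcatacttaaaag
Ifit3, chr19:34583329-34583528, plus strand: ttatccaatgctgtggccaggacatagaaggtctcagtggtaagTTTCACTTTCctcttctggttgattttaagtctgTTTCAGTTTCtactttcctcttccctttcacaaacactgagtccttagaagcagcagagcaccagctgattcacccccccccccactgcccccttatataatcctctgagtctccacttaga
Ifit1, chr19:34640689-34640888, plus strand: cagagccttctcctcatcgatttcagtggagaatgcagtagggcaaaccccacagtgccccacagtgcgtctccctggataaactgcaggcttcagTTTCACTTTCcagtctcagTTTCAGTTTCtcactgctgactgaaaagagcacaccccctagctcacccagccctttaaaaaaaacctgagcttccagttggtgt
Bst2, chr8:71537473-71537672, minus strand: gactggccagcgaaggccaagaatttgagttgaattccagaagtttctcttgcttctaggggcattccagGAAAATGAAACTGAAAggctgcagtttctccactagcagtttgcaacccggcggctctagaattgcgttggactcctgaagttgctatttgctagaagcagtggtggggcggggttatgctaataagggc
The motif was found in the 300-base promoter windows (250 bases before to 50 after the start) of 7 of the 10 interferon genes that have a promoter in the table. Counted the same way, 3.99% of all 27025 genes with a promoter held it, and 3.44% of all 32851 windows did. The motif was in 0 of the 40 genes with at least 1000 TPM that have a promoter there. Irf7, Oasl2 and Xaf1 had no match in these windows, which says only that these letters are not there. A match is a description of the sequence and not a bound site.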

How the data were processed

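Each deposited file gives, for 48401 symbols, the authors' TPM and expected count without a header line. Per the submitters' processing notes the build was mm10 and the tools were featureCounts 1.6.2, HISAT2 2.1.0 and FastQC 0.11.8. Per the labels' protocols, total RNA went into the NEBNext Ultra RNA kit, which does not mark strand. Annotation, strand setting and the handling of multiply matching reads were not given in the sources used here. Of the deposited expected counts 65.7% were whole numbers (tolerance 1e-06).

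Groups came from the sample titles. Genes were ranked by mean TPM over the 3 siNC libraries, and the CV is the SD over that mean. The length of each feature was derived from count over TPM, calibrated on 1695 single-transcript genes of GENCODE M21, of which 83.1% fell within 10%. The view limited to features of at least 200 bases was added after seeing the data. GENCODE M21, on the same build, gave coordinates, biotypes and overlaps for 37421 symbols. A ratio of highest to lowest library used a pseudocount of 0.5. The biological coefficient of variation came from edgeR 4.0.16 (R 4.3.3) on rounded counts with TMM normalization (factors 0.995, 1.000 and 1.006), an intercept and no test. The script was tested on simulated data. With 1 group no test between groups was made and no p-value is given. Intervals are SDs over 3 libraries.

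The members and the 41 gene lists were chosen with earlier results of these data known. Named genes were the 40 of highest mean TPM, members of the lists (up to 8 by level, or any for neuron class, glia, stroma and immune lists, and those at 0), the 15 of highest ratio at 10 TPM or more with at most 3 predicted symbols, and the 10 of smallest CV at 50 TPM or more. Mir3064, Rpl4, and the genes over 2-fold beyond those 15 were named after their values were seen. Some list members beyond the 8 by level were also named, outside this rule, among them Fos, Npas4 and H19. Alternatives were each library left out, other thresholds, pseudocounts and scalings, and CPM in place of TPM. A few list members are not reported here.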

Additional observations from a re-analysis of the deposited data

How the results depend on the processing

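The number of genes with a mean of at least 1 TPM, the share of the 100 most abundant genes, the median CV and the biological coefficient of variation kept within 1.5 times their reported values under every alternative run. The biological coefficient of variation was 7.32% without siNC-1, 5.51% without siNC-2 and 7.73% without siNC-3, against 6.99% with all 3. The count of genes over 2-fold between libraries was the exception, and it fell from 972 to between 451 and 635 when 1 library was left out (635 without siNC-1, 556 without siNC-2 and 451 without siNC-3), to 87 at 10 TPM or more and to 342 among features of at least 200 bases. Fewer libraries or features enter each of these counts. Mean TPM of all 523 genes listed by name stayed within 1 SD under TMM scaling, but factors of 0.995 to 1.006 hardly move a mean. Leaving out a library or taking the median cannot move a mean of 3 by 1 SD. None of these settings therefore says anything of stability. In CPM, which are not divided by length, 35 of 43 list sums moved by more than 1 SD and 8 did not. No paired analysis was possible because all 3 libraries belong to 1 group and no result comes from a test. Precision is limited by 3 libraries and, below 10 TPM, by counting.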
